A study of Mus musculus with 15 samples.

Results

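The genes described here are Muc19, A2ml1, Dcpp1, Dcpp2 and Dcpp3, 5 of the 32479 genes with a count in any library, chosen by gene name as secretory products of the mucous sublingual gland. RNA was sequenced from glands labelled as submandibular in 15 mouse libraries, 5 in each of 3 groups. In the SJQYD group NOD/LTJ mice had received SJQYD, for which the labels give neither an expansion of the letters nor a dose or duration. Mice of the model group were also NOD/LTJ, a strain prone to autoimmune inflammation of the salivary glands, and had no treatment. Mice of the control group were of the outbred ICR stock, likewise without treatment. The labels give WT as the genotype of all 3 groups, and neither the age nor the sex of the mice. NOD/LTJ mice differ from ICR mice by strain as well as by disease, so the effects of strain and of disease cannot be told apart wherever the control group is used. The labels do not say whether the 5 libraries of a group came from separate animals, so p values measure the spread between libraries.

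In the mouse the sublingual gland lies directly against the submandibular gland. Its mucous cells secrete a gel-forming mucin, a very large glycoprotein covered in O-linked sugar chains that gives saliva its viscosity, and serous demilune cells cap those mucous cells. Muc19 encodes the main gel-forming mucin of the mouse sublingual gland. Dcpp1, Dcpp2 and Dcpp3 encode the demilune cell and parotid proteins, small secreted proteins named after the serous demilunes of the sublingual gland and the parotid gland, so these 3 members are products of serous rather than mucous cells. A2ml1 encodes a secreted protein of the alpha-2-macroglobulin family of protease inhibitors, whose role in mouse salivary glands is not stated in the labels. In whole glands, fewer cells of a type and less RNA per cell cannot be told apart.

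Muc19 (ENSMUSG00000044021) lies on the plus strand at chr15:91838326-91934555 and A2ml1 (ENSMUSG00000047228) on the minus strand at chr6:128539821-128581608, in GRCm38 coordinates. Dcpp1 (ENSMUSG00000096445) lies at chr17:23880876-23882853, Dcpp2 (ENSMUSG00000096278) at chr17:23880880-23900764 and Dcpp3 (ENSMUSG00000057417) at chr17:23917458-23919441, all on the plus strand in 1 cluster. The annotated models of Dcpp1 and Dcpp2 share 30 exonic bases, because 1 Dcpp2 transcript begins in the first exon of Dcpp1. Reads in these bases can be assigned to the wrong gene. Dcpp3 shared 0 exonic bases with either, but reads of all 3 copies may be exchanged where their sequences are alike. Over the aligned coding sequence of 513 positions, taken from GENCODE M21, Dcpp1 and Dcpp2 were 93.8% identical, Dcpp1 and Dcpp3 93.2%, and Dcpp2 and Dcpp3 95.3%. Of the 46 positions at which the copies differed, 21 set Dcpp1 apart from both others, 11 set Dcpp2 apart and 14 set Dcpp3 apart. Windows of 150 bases that occurred in no other member made up 95.9% of the Dcpp1 transcript, 100% of the Dcpp2 transcript and 95.7% of the Dcpp3 transcript.

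The stretch of 90 coding bases richest in differences (coding bases 274 to 363) shows what separates the copies, since a ratio of Dcpp1 to Dcpp2 rests on such positions. It is printed 5′ to 3′ with the 20 positions that differ in capitals.
Dcpp1: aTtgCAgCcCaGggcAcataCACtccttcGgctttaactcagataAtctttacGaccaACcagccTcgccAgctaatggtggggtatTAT
Dcpp2: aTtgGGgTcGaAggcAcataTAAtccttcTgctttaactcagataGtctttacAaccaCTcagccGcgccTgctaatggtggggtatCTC
Dcpp3: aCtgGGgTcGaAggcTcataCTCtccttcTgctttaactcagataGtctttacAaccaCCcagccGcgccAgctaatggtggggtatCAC

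RefSeq promoters (GRCm38.p6) were found for 4 of the 5 members, and the 100 bases before each start are shown. The capitals mark TATAA, the core of the TATA box that positions RNA polymerase II, searched on the strand of the gene within 50 bases of the start after the sequences were seen.
Dcpp1, chr17:23880776-23880875, plus strand: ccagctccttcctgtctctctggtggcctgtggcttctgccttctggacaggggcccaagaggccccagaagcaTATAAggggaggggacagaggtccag
Dcpp2, chr17:23898622-23898721, plus strand: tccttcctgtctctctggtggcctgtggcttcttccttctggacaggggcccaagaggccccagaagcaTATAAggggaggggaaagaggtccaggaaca
Dcpp3, chr17:23917358-23917457, plus strand: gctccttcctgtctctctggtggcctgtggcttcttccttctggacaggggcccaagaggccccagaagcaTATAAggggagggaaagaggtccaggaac
A2ml1, chr6:128581607-128581706, minus strand: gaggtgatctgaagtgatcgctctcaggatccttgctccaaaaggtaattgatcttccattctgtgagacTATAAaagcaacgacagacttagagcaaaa
TATAA began 26, 31, 29 and 30 bases before the start of Dcpp1, Dcpp2, Dcpp3 and A2ml1. The same letters in the same window were held by 4.93% of all 32851 promoters in the table. Smgc, made from the same locus as Muc19, also held TATAA, 30 bases before its start. Its r with Muc19 over the libraries was 0.372. A part of the motif in the levels was not tested. The 3 Dcpp promoters were near-copies of each other, with 93 identical positions of 105 aligned for Dcpp1 and Dcpp2, 94 of 104 for Dcpp1 and Dcpp3, and 98 of 102 for Dcpp2 and Dcpp3, so their matches are not independent of each other.

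The 15 libraries held 39510018 to 68694263 counts each. Levels are given as CPM, read counts normalised to library size with TMM factors, which ran from 0.594 to 1.85. A count of 3, the floor for detection, was worth 0.0290 to 0.0840 CPM, and this covers counting error only. The labelled tissue was present in every library, since 7 markers of submandibular acini held 18.0% to 60.3% of all counts. Transcripts of the parotid gland, another neighbour, differed widely: the summed level of 7 parotid genes was 114068 CPM in model 3, 36568 in control 2 and 31289 in SJQYD 1, against 16.2 to 13503 CPM in the other libraries. Xist, the transcript that silences an X chromosome in female cells, stood at 1.01 CPM in SJQYD 3, against 162 to 270.2 CPM elsewhere.

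Together the 5 members held between 0.00242% and 8.46% of all counts of a library. The shares in the SJQYD group were 8.46%, 2.86%, 4.89%, 1.65% and 0.00840% in libraries 1 to 5. They were 2.59%, 0.405%, 0.918%, 3.34% and 0.687% in the model group, and 0.0862%, 2.16%, 0.00242%, 3.85% and 0.0390% in the control group. The group medians were 2.86% for SJQYD, 0.918% for model and 0.0862% for control, but each group held at least 1 library over 2% and at least 1 under 1%. The ranges of the 3 groups overlapped.

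Muc19 stood at 5259, 2212, 3965, 2081 and 8.91 CPM in SJQYD libraries 1 to 5. Its levels were 1138, 250.4, 14.9, 3376 and 534 CPM in model libraries 1 to 5, and 82.4, 2072, 3.97, 4287 and 61.8 CPM in control libraries 1 to 5. The 3 groups overlapped almost completely, with SJQYD 5, model 3 and control 3 as the lowest library of each. The highest library held 1326 times the level of the lowest. Other gel-forming mucins were nearly absent: Muc2, Muc5b and Muc6 summed to 0.132 to 0.426 CPM in SJQYD, 0.158 to 0.516 CPM in model and 0 to 0.690 CPM in control libraries.

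A2ml1 followed Muc19 library by library. It stood at 5959, 1614, 4406, 1503 and 9.75 CPM in SJQYD libraries 1 to 5. It stood at 1265, 316, 12.2, 3627 and 697 CPM in model libraries 1 to 5 and at 94.1, 2069.8, 3.37, 4391 and 52.0 CPM in control libraries 1 to 5. The same library was lowest in each group as for Muc19, and the groups overlapped.

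Among the demilune cell and parotid proteins, Dcpp2 had 18959.7, 11134, 20778, 7541 and 40.6 CPM in SJQYD libraries 1 to 5. It had 8991, 1625, 1427, 20003 and 3419 CPM in model libraries and 509.5, 9366, 14.7, 24113 and 266 CPM in control libraries 1 to 5. The SJQYD and control groups each held 1 library under 50 CPM, whereas the lowest model library stood at 1427 CPM. Dcpp1 had 13657, 8390.0, 11712, 6161 and 27.9 CPM in SJQYD libraries, 7404, 1195, 5947, 7501 and 2202 CPM in model libraries, and 715, 7023, 10.5, 10393 and 113 CPM in control libraries 1 to 5. Model 3, low for Muc19 and A2ml1, was not low for Dcpp1. Dcpp3 was the least abundant copy in every library, with 4.30 to 1844 CPM in SJQYD, 153 to 874 CPM in model and 1.48 to 1040.3 CPM in control libraries.

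**Figure D1:**
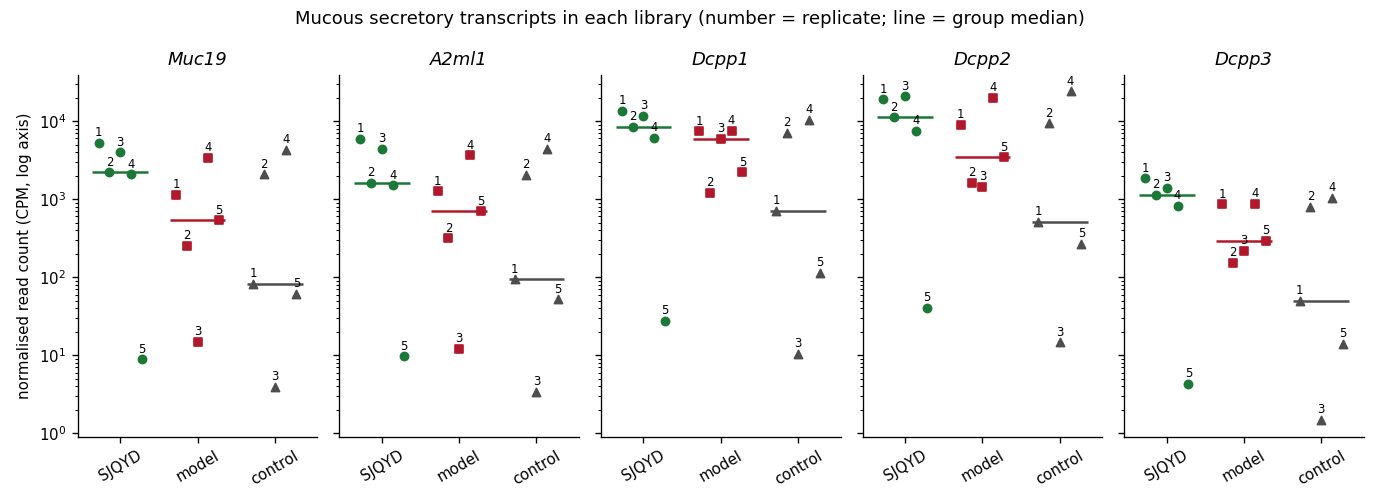
Normalised read count (CPM, log axis) of each member in each library by group, with the replicate number above each point and a line at the group median. The groups overlap for all 5 members, and SJQYD 5 lies below the other SJQYD libraries, at 8.91 CPM for Muc19 and 40.6 CPM for Dcpp2.

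Per length, on the FPKM scale of the authors' deposited table, the Dcpp genes stood above the other members in all 15 libraries. The level of Dcpp2 ran from 12.1 to 40635 FPKM, that of Muc19 from 0.263 to 906 FPKM and that of A2ml1 from 0.261 to 1206 FPKM. In 13 libraries the order of levels was Dcpp2, Dcpp1, Dcpp3 and then A2ml1 and Muc19, of which 9 had A2ml1 above Muc19 and 4 had the reverse, so these last neighbours had no fixed order. In model 3 and control 1 Dcpp1 stood above Dcpp2. The annotated Muc19 models are all non-coding transcripts, the longest of 9104 bases, and 39.1% of the 31-base windows of that transcript occur more than once in it, so the length scaling and the placing of reads are less certain for Muc19 than for the others.

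The first comparison asks how the glands of NOD/LTJ mice given SJQYD differed from those of untreated NOD/LTJ mice. No member passed the test, beside 2.75% of all 18136 tested genes (1.91% higher, 0.838% lower). Muc19 averaged 2705 ± 2001 CPM in SJQYD and 1063 ± 1360 CPM in model libraries (SD, n = 5 each). The log2 fold change was 1.35 ± 1.68 (SE), with an adjusted p of 0.768 in edgeR's quasi-likelihood test. The log2 fold change was 1.19 ± 1.70 for A2ml1, 0.72 ± 1.43 for Dcpp1, 0.72 ± 1.56 for Dcpp2 and 1.12 ± 1.44 for Dcpp3. With the 3 Dcpp copies summed to 1 count, which is free of reads exchanged between copies, it was 0.74 ± 1.48. The median over all tested genes was -0.03. For each of the 5 members 4 of 5 SJQYD libraries lay above the model median, while SJQYD 5 lay below the lowest model library. Each standard error exceeded its fold change, so neither a change nor its absence was detectable at this spread.

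The second comparison sets SJQYD-treated NOD/LTJ glands against ICR glands, where 11.1% of tested genes were called (5.22% higher, 5.90% lower) and no member was. The log2 fold change was 1.06 ± 1.67 for Muc19, 1.03 ± 1.69 for A2ml1, 1.13 ± 1.44 for Dcpp1, 0.77 ± 1.56 for Dcpp2 and 1.45 ± 1.45 for Dcpp3 (SE). The smallest adjusted p was 0.583 for Dcpp3 in the edgeR test. Dcpp3 averaged 1040.03 ± 692 CPM in SJQYD and 381 ± 499.7 CPM in control libraries (SD, n = 5 each). The summed Dcpp counts differed by 0.93 ± 1.48 on the log2 scale.

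The third comparison asks how untreated NOD/LTJ glands differed from ICR glands, and 5.07% of tested genes were called (2.57% higher, 2.50% lower), again without a member. The log2 fold change was -0.29 ± 1.65 for Muc19, -0.16 ± 1.67 for A2ml1, 0.41 ± 1.43 for Dcpp1, 0.05 ± 1.55 for Dcpp2 and 0.33 ± 1.42 for Dcpp3 (SE). Their adjusted p ran from 0.905 to 0.992 in the edgeR test. For each Dcpp gene all 5 model libraries lay above the control median, yet control 2 and control 4 each lay above at least 3 of the model libraries. A two-sided exact permutation test on log2(CPM + 0.1) gave no p under 0.198 for any member in any of the 3 comparisons, where the smallest possible p was 0.00794. On that scale the difference of model and control was 1.08 for Muc19 and 1.27 for A2ml1, the reverse of the sign given by the fit, and 2.75 for Dcpp1, 2.33 for Dcpp2 and 2.59 for Dcpp3, all larger than the fitted values. The difference of SJQYD and control was 2.44 for Muc19, 2.40 for A2ml1, 2.37 for Dcpp1, 2.31 for Dcpp2 and 2.69 for Dcpp3. The difference of SJQYD and model was 1.36, 1.13, -0.38, -0.02 and 0.10 for the same genes in the same order, so for Dcpp1 and Dcpp2 its sign was the reverse of the fit. These 3 comparisons share groups with each other and are not independent.

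**Figure D2:**
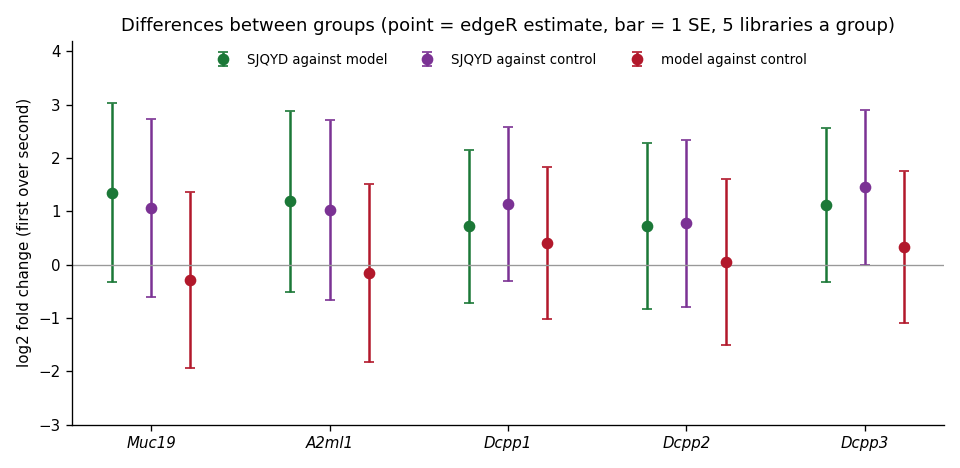
Log2 fold change of each member (edgeR estimate, bars of 1 SE, 5 libraries a group) in the 3 comparisons, the first named group over the second. The estimates lie between -0.29 and 1.45, and the standard errors between 1.42 and 1.70.

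The levels of the 5 members moved together across libraries. Correlations were taken on log2(CPM + 0.1) over the 15 libraries, as a description with no test, since the members were known to vary together when they were chosen. The libraries share their depth and their scaling factor. They did not fall into separate clusters: the widest gap between neighbouring Muc19 levels was 2.05 of a range of 10.3 on the log2 scale. Muc19 and A2ml1, on different chromosomes, had a Pearson r of 0.997 and a Spearman rho of 0.986. Without SJQYD 5 and control 3, the libraries farthest from the median, r was 0.995. It was also 0.997 after each group mean was subtracted and 0.979 within the 10 libraries over 100 CPM of Muc19, a subset chosen after the data were seen.

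The 3 Dcpp copies gave r of 0.970 (Dcpp1 and Dcpp2), 0.988 (Dcpp1 and Dcpp3) and 0.989 (Dcpp2 and Dcpp3), with rho of 0.954, 0.989 and 0.939. Between the families, Muc19 correlated with Dcpp2 at r = 0.946 (rho 0.957), with Dcpp3 at r = 0.915 (rho 0.950) and with Dcpp1 at r = 0.853 (rho 0.943). A2ml1 correlated with them at 0.942, 0.909 and 0.846. Without SJQYD 5 and control 3 the r of Muc19 and Dcpp1 was 0.684, and without model 3 it was 0.984. Within the 10 NOD/LTJ libraries the lowest of the 10 pairs was A2ml1 and Dcpp1 at r = 0.718. Across all 18131 other tested genes the median r with Muc19 was 0.02, and 40 genes, or 0.221%, had an r over 0.9.

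**Figure D3:**
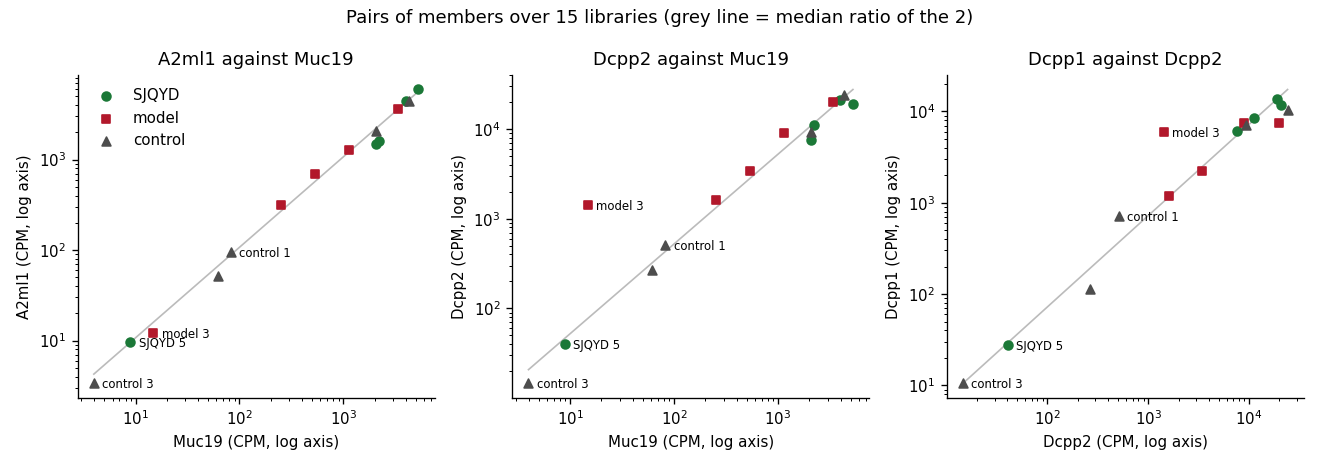
Levels of pairs of members in the 15 libraries (CPM, log axes), with a grey line at the median ratio. A2ml1 and Muc19 lie on the line over the whole range (r = 0.997), whereas model 3 lies above it for Dcpp2 against Muc19 and for Dcpp1 against Dcpp2.

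Ratios within a library remove the total amount of the group of transcripts, and 5 of them were chosen after the values were seen. The count ratio of A2ml1 to Muc19 was 0.722 to 1.13 in SJQYD, 0.821 to 1.304 in model and 0.841 to 1.14 in control libraries, a range of 1.81 times over libraries in which Muc19 itself ranged 1326 times. The ratio of Dcpp1 to Dcpp2 was 4.17 in model 3 and 1.40 in control 1, and ran from 0.375 to 0.823 in the other 13 libraries. The ratio of Dcpp1 to Muc19 was 400.2 in model 3 and 1.83 to 8.68 elsewhere. Model 3 was also the library with most parotid transcript, and Dcpp genes are named after the parotid as well as the demilune. SJQYD 1 and control 2, next in parotid transcript, had ratios of Dcpp1 to Muc19 of 2.60 and 3.39. Their Muc19 levels were 5259 and 2072 CPM, against 14.9 CPM in model 3. Model 1 and control 1, with 13503 and 9519 CPM of parotid transcript, had ratios of 6.51 and 8.68. Whether parotid tissue had a part in these ratios was not tested, only their relation to the level of Bpifa2. Bpifa2 encodes an abundant parotid secretory protein and was listed here among the serous and saliva proteins as well. Over the 15 libraries the log2 ratio of Dcpp1 to Muc19 and the level of Bpifa2 had r = 0.491 and rho = 0.325 (adjusted permutation p = 0.139 and 0.353 over 12 relations). The log2 ratio of Dcpp1 to Dcpp2 and Bpifa2 had r = 0.443 and rho = 0.404 (adjusted permutation p = 0.186 and 0.299). Without SJQYD 4 and SJQYD 5, the libraries farthest from the median of Bpifa2, these r were 0.546 for Dcpp1 to Muc19 and 0.587 for Dcpp1 to Dcpp2.

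The count ratio of Dcpp2 to Muc19 was 3.61, 5.03, 5.24, 3.62 and 4.55 in SJQYD libraries 1 to 5. It was 7.90, 6.49, 96.0, 5.92 and 6.40 in model libraries 1 to 5, and 6.19, 4.52, 3.70, 5.62 and 4.30 in control libraries 1 to 5. All 5 SJQYD libraries lay below all 5 model libraries, and the groups of model and control overlapped by control 1 alone. The SJQYD and model groups differed by -1.38 on the log2 scale (two-sided exact permutation p = 0.00794, the smallest possible), and without model 3 by -0.61. The adjusted p over the 15 ratio tests was 0.119 for this difference. A single difference at the smallest possible p adjusts to 0.119 over 15 tests, so 1 such difference alone could not have passed, and no ratio passed. Because the ratios were chosen after the values were seen, the p values of these ratio tests are a description and do not measure chance. The difference of model and control was 1.24 (exact permutation p = 0.0159, adjusted p = 0.119), and without model 3 it was 0.47.

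**Figure D4:**
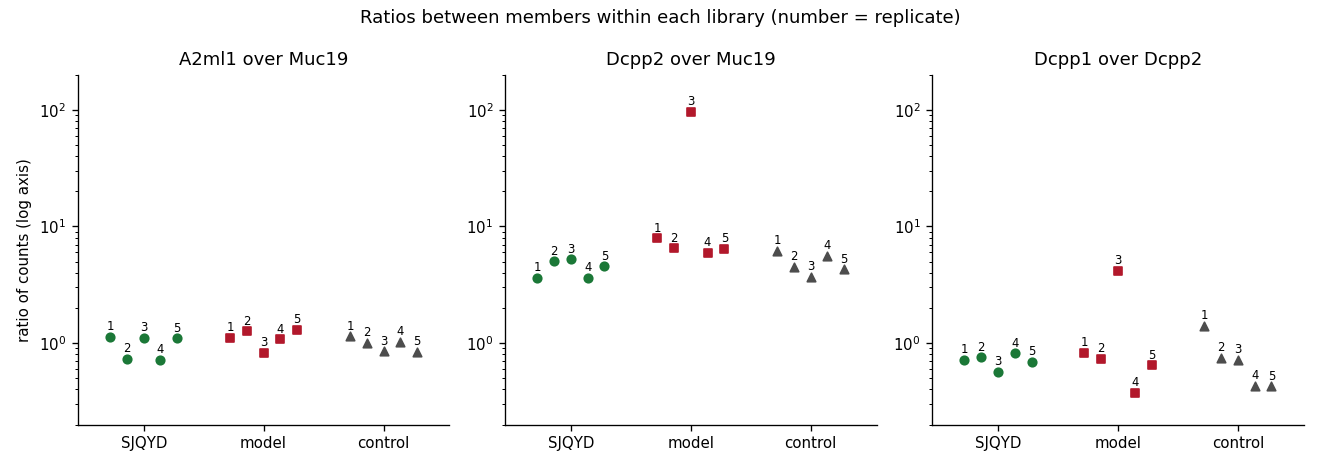
Count ratios between members in each library (log axis, number = replicate) by group. The ratio of A2ml1 to Muc19 stays within 0.722 to 1.304, while model 3 stands at 96.0 for Dcpp2 over Muc19 and 4.17 for Dcpp1 over Dcpp2.

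The genes whose pattern was most like Muc19, by Pearson r over the 15 libraries, were Nkx2-3 (0.991), Kcne1 (0.984), B3gnt6 (0.984), Sel1l3 (0.977), Mup4 (0.972), Tmc5 (0.969), Isl2 (0.964), Mup6 (0.956), Slc8a3 (0.954) and Fam3b (0.953). Nkx2-3 encodes a homeodomain transcription factor known in mice for its part in the development of the sublingual gland, and it stood at 17.1, 7.46, 18.2, 5.66 and 0 CPM in SJQYD, 5.75, 1.58, 0, 11.6 and 2.26 CPM in model and 0.420, 9.62, 0, 11.4 and 0.350 CPM in control libraries 1 to 5. It was thus at 0 in SJQYD 5, model 3 and control 3, the libraries lowest in Muc19, which is part of the likeness by which it was named. B3gnt6 makes the core 3 O-glycan of mucins and ran from 0 to 55.7 CPM. Kcne1 encodes a subunit of potassium channels, Tmc5 a transmembrane channel-like protein, Isl2 a homeodomain transcription factor and Slc8a3 a sodium-calcium exchanger. Mup4 and Mup6 belong to the major urinary proteins, a cluster of near-identical copies whose reads may be exchanged.

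The genes most like the mean of the 3 Dcpp genes were Ltf (0.966), Galnt12 (0.932), Trpm6 (0.916), Mcoln2 (0.909), Isl2 (0.905), B3gnt6 (0.899), Sox2 (0.897), Mup4 (0.893), Pglyrp1 (0.886) and Sel1l3 (0.879). Ltf encodes lactoferrin, an iron-binding antibacterial protein of secretions, and ran from 0 to 77.6 CPM. Pglyrp1 encodes a peptidoglycan recognition protein and ran from 17.4 to 684 CPM. Sox2 is a transcription factor of epithelial progenitors and Trpm6 a magnesium channel. The 2 lists of 10 had 4 genes in common, Isl2, B3gnt6, Mup4 and Sel1l3. None of the 16 genes passed the edgeR test in any comparison, and all were named by their likeness alone.

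**Figure D5:**
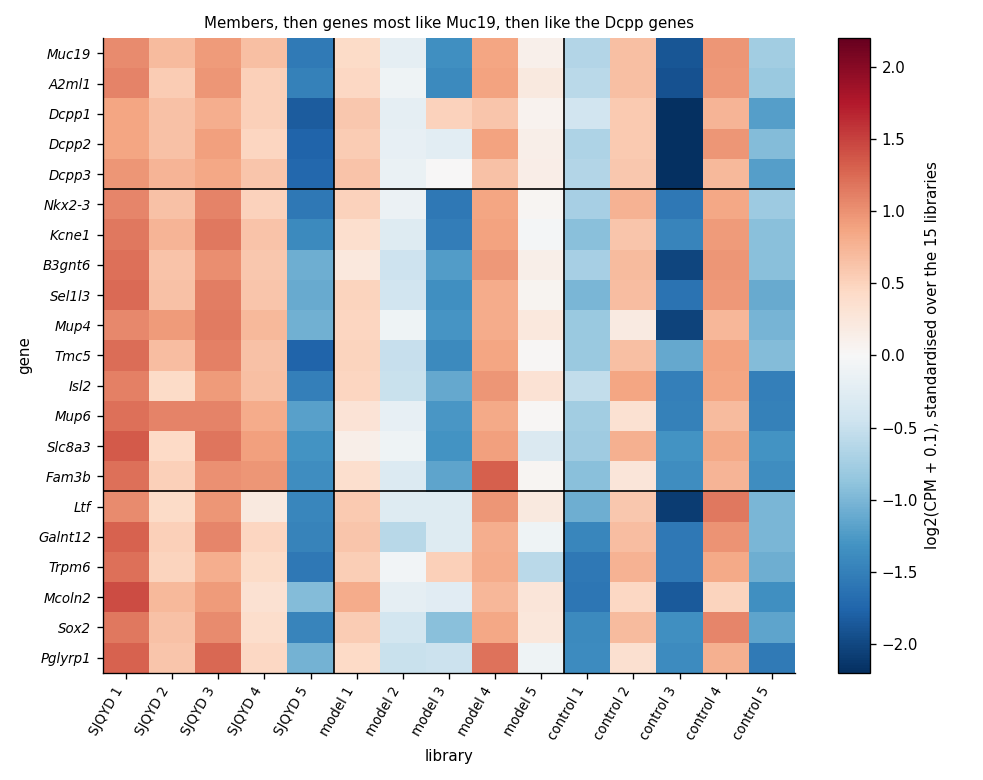
Log2(CPM + 0.1) of the 5 members, the 10 genes most like Muc19 and the further genes most like the Dcpp genes, standardised over the 15 libraries. The columns SJQYD 5 and control 3 are low in every row, and model 3 is low for Muc19 (14.9 CPM) but not for Dcpp1 (5947 CPM).

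Of 28 genes of mucin O-glycosylation 26 were tested. In SJQYD against model 0 were called, beside 2.75% of all tested genes. In SJQYD against control 2 rose and 3 fell, beside 5.22% and 5.90% of all tested genes, and in model against control 0 rose and 3 fell, beside 2.57% and 2.50%. The 3 that fell in both NOD/LTJ groups were Gcnt1, which branches core 1 into core 2 O-glycans, Galnt10, a transferase of O-glycan synthesis, and C1galt1c1, the chaperone of the core 1 enzyme. Gcnt1 averaged 63.1 ± 9.06 CPM in model and 135 ± 20.6 CPM in control libraries (SD, n = 5 each), a log2 difference of -1.10 with a standard error of 0.19 (adjusted p = 0.00452 by edgeR). Galnt7, which adds sugars to peptides that already carry an O-glycan, rose in SJQYD against control by 1.24 ± 0.30 (edgeR adjusted p = 0.0156), and St6galnac2, a sialyltransferase, by 1.93 ± 0.45. The r with Muc19 was -0.49 for Gcnt1, -0.30 for Galnt10, -0.20 for C1galt1c1, 0.626 for Galnt7 and -0.11 for St6galnac2. The median r with Muc19 over the 26 genes was 0.165, with B3gnt6, Galnt12 and Galnt4 over 0.9. The median log2 fold changes of the list were 0.23 in SJQYD against model, 0.46 in SJQYD against control and 0.10 in model against control, beside -0.03, 0.04 and 0.03 over all genes.

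Of 6 tested genes of the mucous cell programme, Agr2, a protein disulfide isomerase needed for mucin folding in the intestine, fell in both NOD/LTJ groups against control, where 5.90% (SJQYD) and 2.50% (model) of all tested genes fell. It averaged 0.650 ± 0.164 CPM in SJQYD, 0.613 ± 0.223 CPM in model and 17.0 ± 6.82 CPM in control libraries (SD, n = 5 each). The log2 fold change was -4.70 ± 0.32 in SJQYD against control and -4.79 ± 0.33 in model against control. The r of Agr2 with Muc19 was -0.24. Spdef, a transcription factor of mucous cell differentiation, had a log2 fold change of 0.97 ± 0.26 in SJQYD against model and missed the threshold (edgeR adjusted p = 0.0548). Creb3l4 and Fcgbp had the highest r with Muc19 in this list, 0.874 and 0.821. None of the 2 tested secreted mucins, 4 membrane mucins, 3 further genes of the alpha-2-macroglobulin family and 5 serous and saliva proteins was called in any comparison. Muc13, the most abundant membrane mucin of the list, ran from 2.60 to 26.8 CPM. The alpha-2-macroglobulin family apart from A2ml1 was scarce, with Pzp at 7.13 CPM at most.

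Smgc encodes a secreted protein of immature submandibular cells and is made from the same locus as Muc19. Their annotated models share 95 exonic bases, and reads in these cannot be told apart. Smgc stood at 1351, 504, 1284, 583 and 3.32 CPM in SJQYD, 963, 443, 245, 646 and 734 CPM in model and 2069.7, 1666, 2012, 1352 and 2420.2 CPM in control libraries 1 to 5. Control 3, with the lowest Muc19 level of all, had 2012 CPM of Smgc. The highest model library, model 1, stood at 963 CPM. The highest SJQYD library, SJQYD 1 (1351.48 CPM), almost reached the lowest control library, control 4 (1351.56 CPM). The fitted change against control was -1.65 ± 0.86 (SE) in model and -1.35 ± 0.86 in SJQYD. Neither passed the edgeR test (adjusted p = 0.290 and 0.348). Smgc and Muc19 had r = 0.372 and rho = 0.061 over 15 libraries (adjusted permutation p = 0.254 and 0.883 over 12 relations), and r = -0.43 without model 3 and SJQYD 5. SJQYD 5 was thus low in both products of the locus.

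Markers of other cells are given beside these levels. Of 7 parotid genes 0 were called in any comparison, and their summed level ran from 16.2 to 31289 CPM in SJQYD, 187 to 114068 CPM in model and 82.0 to 36568 CPM in control libraries, with a median r with Muc19 of 0.180. Of 7 genes of submandibular acini Bhlha15, a regulator of secretory cells, fell in model against control (-0.57 ± 0.15 SE, beside 2.50% of all tested genes lower), and the median r with Muc19 was -0.34. Of 9 genes of granular ducts 0 were called, with a median r of -0.68 and summed levels of 3939 to 14194 CPM in SJQYD, 6172 to 10811 CPM in model and 9180 to 26528 CPM in control libraries. Of 9 B and T cell genes and 5 tested adipocyte genes 0 were called, with median r of 0.307 and -0.34. Of 6 skeletal muscle genes, Tnnt3, Ryr1 and Eno3 were higher in both SJQYD and model than in control libraries, beside 5.22% and 2.57% of all tested genes. The list summed to at most 38.5 CPM. The highest level was 0.454 CPM for Tnnt3, which stood at 0 in all control libraries, 0.753 CPM for Ryr1 and 34.8 CPM for Eno3. Total count had r = -0.24 and the TMM factor r = 0.467 with Muc19 (adjusted permutation p = 0.409 and 0.186 over 12 relations). Dcpp1 had r = 0.588 and rho = 0.604 with the TMM factor (adjusted permutation p = 0.139 and 0.153). With Mucl2, a secreted product of submandibular acini, Dcpp1 had r = -0.54 and rho = -0.58 (adjusted permutation p = 0.139 and 0.153), and with Bpifa2 it had r = 0.541 and rho = 0.425 (0.139 and 0.299). None of the 12 relations passed. Without control 1 and SJQYD 1, farthest in the TMM factor, r with the TMM factor was 0.658 for Dcpp1 and 0.361 for Muc19. The r of Dcpp1 was -0.57 with Mucl2 without model 3 and SJQYD 1, and 0.522 with Bpifa2 without SJQYD 4 and SJQYD 5. These relations describe how levels varied together. Whether these other tissues or the scaling had a part in the members' levels was not tested.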

How the data were processed

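Submandibular gland RNA was selected with oligo-dT and made into stranded libraries with molecular identifiers, per the labels' protocols. Deposited by the authors were a matrix of raw counts for 55401 genes and a table with the same counts beside FPKM values for 32479 genes. FPKM values were scaled by the authors to gene length and library size. The submitters' processing notes name HISAT2 2.0.4, StringTie 1.3.4d and cutadapt 1.9, further edgeR, DESeq2 and UMI-tools, with no role for any, and the build mm9. Coordinates in the deposited table equal GRCm38 for 90.9% of 32385 genes found in GENCODE M21, so GRCm38 is given. The deposited counts hold the value 4 more often (14040 times) than 3 (8483) or 5 (4460), so a count is not read as 1 molecule.

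Counts were fitted with edgeR 4.0.16 in R 4.3.3 (TMM, default filter by group leaving 18136 genes, robust quasi-likelihood F test, 1 mean a group over all 15 libraries). P values are two-sided and Benjamini-Hochberg adjusted over all tested genes, with a threshold of 0.05. The code was tested on simulated counts. Exact permutation tests and correlations used scipy 1.17.1, with 0.1 added to CPM before logs. Sequences came from GENCODE M21 transcripts and RefSeq promoters. Alternatives were other normalizations and filters, DESeq2 1.42.0, limma 3.58.1 on log2 FPKM, fits of 2 groups, a replicate block and leaving out libraries. The members, the 13 gene lists and the tests were chosen with earlier results of these data known. Genes outside the lists were named by rule: the 10 most like Muc19 and the 10 most like the Dcpp mean, predicted genes and pseudogenes left out. Within lists, Smgc, called genes and those with small p or high r with Muc19 were named.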

Additional observations from a re-analysis of the deposited data

Results flagged for a closer look

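Of 33 sets of 5 libraries tested for a value far from the other 4, 9 stood out. The rule flags about 1 in 20 sets by chance. That rate does not hold here, since the sets share libraries and the ratios were chosen after the values were seen. In 6 of them SJQYD 5 lay far below the other SJQYD libraries, at 8.91 CPM for Muc19, 9.75 for A2ml1, 27.9 for Dcpp1, 40.6 for Dcpp2, 4.30 for Dcpp3 and 3.32 for Smgc. These 6 sets share 1 library and are not independent. Model 3 lay far above the other model libraries in the ratio of Dcpp2 to Muc19, at 96.0, and of Dcpp1 to Muc19, at 400.2. Both ratios share the Muc19 count of model 3 and are not independent. SJQYD 3 had the lowest ratio of Dcpp3 to Dcpp2 among SJQYD libraries, at 0.0677, although 3 libraries of the other groups had lower ones.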

How the results depend on the processing

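No member was called in any of 27 alternative fits, whose smallest adjusted p was 0.229. Over 21 alternatives the lowest r of a pair of members was 0.718, for A2ml1 and Dcpp1 within the 10 NOD/LTJ libraries. Without SJQYD 5 and control 3, a variant not counted among these, that pair had r = 0.670. The signs were less stable. In model against control the log2 fold change of Muc19 and A2ml1 was 1.15 and 1.35 in limma on log2(FPKM + 1) with or without the filter, 1.48 and 1.67 on log2(FPKM + 0.1), 0.25 and 0.38 without control 2, model 3 and SJQYD 1, and 1.08 and 1.27 as the difference in the exact permutation test. A2ml1 was at 0.030 with total counts. In SJQYD against model Dcpp1 was at -0.31 in the FPKM fits and -0.38 in the exact test, where Dcpp2 was at -0.017. Same-numbered libraries varied together little (r of -0.26 to 0.173, over 0.1 in 4 of 15 pairs), so the number was not taken as a pairing. A library was closest to its own number in 3 pairs, all of replicate 4. Their r was 0.173 (model and control), 0.110 (SJQYD and model) and 0.165 (SJQYD and control). With the replicate block Muc19 and A2ml1 were at 0.70 and 0.85 in model against control and Dcpp1 at -0.060 in SJQYD against model.

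Leaving out 1 library at a time, in model against control Muc19 ran from -1.43 to 0.94, A2ml1 from -1.21 to 1.09, Dcpp2 from -0.83 to 1.48, Dcpp3 from -0.00025 to 1.15 and the summed Dcpp counts from -0.37 to 1.40. These lowest values were without model 4 and the highest without control 4. Dcpp1 ran from 0.089 (without control 3) to 1.304 (without control 4). In SJQYD against model Muc19 ran from 0.97 to 2.48, A2ml1 from 0.68 to 2.24, Dcpp1 from 0.45 to 1.04, Dcpp2 from 0.41 to 1.60 and Dcpp3 from 0.82 to 1.45. The lowest values were without SJQYD 1 (Dcpp2 without SJQYD 3), and the highest without model 4 (Dcpp1 without SJQYD 5). In SJQYD against control Muc19 ran from 0.67 to 2.29, A2ml1 from 0.51 to 2.28, Dcpp1 from 0.81 to 2.02, Dcpp2 from 0.45 to 2.203 and Dcpp3 from 1.13 to 2.26. The lowest values were without SJQYD 1 (Muc19 and A2ml1) or control 3 (Dcpp genes), and the highest without control 4. The difference of SJQYD and model in the ratio of Dcpp2 to Muc19 ran from -1.61 to -0.61. These groups did not overlap with all libraries in, so leaving 1 out could not make them overlap.

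The number of genes called in model against control was 920, against 1565 with total counts, 1779 with DESeq2, 466 with the 2 groups alone, 1447, 1958 and 555 in the FPKM fits (added 1, added 0.1, no filter), 1507 without the 3 libraries, and 354 (without model 2) to 1799 (without control 2) leaving out 1 library. For SJQYD against model it was 498, against 43 with total counts, 1072 with DESeq2, 68, 57 and 48 in the FPKM fits, and 186 without the 3 libraries. For SJQYD against control it was 2017, against 4679 with total counts, 3626 and 4046 in the filtered FPKM fits, and 1240 to 2626 leaving out 1 library. The cause was not tested. Subsets of libraries named here were chosen after seeing the data.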
